A study of Mus musculus with 383 samples.

Results

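The 88 mice described here are those with an expression array of hypothalamus and an expression array of thalamus, joined by the animal's identifier. They are 88 of 117 mice and carry 176 of the 383 arrays of the study, which also measured hippocampus and cortex. All were male F2 offspring (C57BL/6J x 129S1/SvImJ), so each animal carries its own mix of both parental genomes. All had the same history: behavioural tests from 7 weeks of age, electrodes for sleep recording from 10 weeks, and recordings at rest, following 6 h without sleep, and following restraint for 1 h. Brains were collected at 16 weeks of age, 6 to 7 h into the light phase. There was no treated and no control group, and each array is 1 region of 1 animal. For each probe set, which is a group of short oligonucleotides that report 1 transcript, the value in hypothalamus was correlated with the value in thalamus across the mice. Levels were not compared between the regions.

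Hypothalamus and thalamus lie next to each other in the diencephalon, on either side of the third ventricle. Nerve cells of the hypothalamus release hormones and neuropeptides such as orexin, vasopressin and oxytocin, while the thalamus is made mostly of glutamatergic relay neurons with few interneurons. Between the regions lie the zona incerta, the reticular nucleus, the subthalamic area and the wall of the ventricle, and dopamine cell groups of hypothalamus and midbrain lie just beside and behind. A piece of tissue that sits on such a border can fall into either dissected sample. In tissue samples such as these, fewer cells of a type and less RNA per cell cannot be told apart.

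The arrays of a mouse matched each other. Over the 277 probe sets with r above 0.8, the thalamus array of 88 of 88 mice was most like the hypothalamus array of its own animal, with a lowest own correlation of 0.714 against a highest correlation with another animal of 0.531; these probe sets were chosen on the same arrays, so the values describe the pairing and are no test of it. The thalamus label matched its markers: Tcf7l2, a transcription factor of thalamic relay neurons, was higher in thalamus than in cortex in 91 of 91 mice with both arrays, by 4.47 on the log2 scale. Such a check was not made for hypothalamus, because its values were off the usual log2 scale: 335 of 45037 probe sets had a mean below 0 or above 16 in hypothalamus, against 0 in thalamus. The median RNA integrity number was 9.2 in hypothalamus and 7.9 in thalamus. By the date of hybridization, 70 mice had both arrays on the later dates and 18 had both on the earlier dates. The 18 were also the first mice in the order of animal identifiers. Hybridization date and series of animals therefore cannot be told apart in this split. Within these groups r is given for the genes described most fully and where it differs most from the value over all mice. Between 81 and 88 mice had both values of a probe set.

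Many more transcripts went together between hypothalamus and thalamus than went opposite ways. Of 45037 probe sets, 3558 had a positive r (7.9%) and 110 a negative r (0.244%) with p adjusted by the Benjamini-Hochberg method across the whole array and a threshold of 0.05, which is what "called" means here, so 8.14% were called in all. The smallest size of r that was called was 0.303, and the adjusted p was 0.05 for the last probe set called and 0.0502 for the first that was not. The median r over all probe sets was 0.0459, and 36.1% of them had r below 0. With 1 probe set per gene, 1593 of 18193 genes were called with a positive r (8.76%) and 46 with a negative r (0.253%), 9.01% in all. These shares are the background for the counts that follow. The gene lists below were chosen with earlier results of these data known. The share of called genes in a list is therefore a description and no test of the list.

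**Figure D1:**
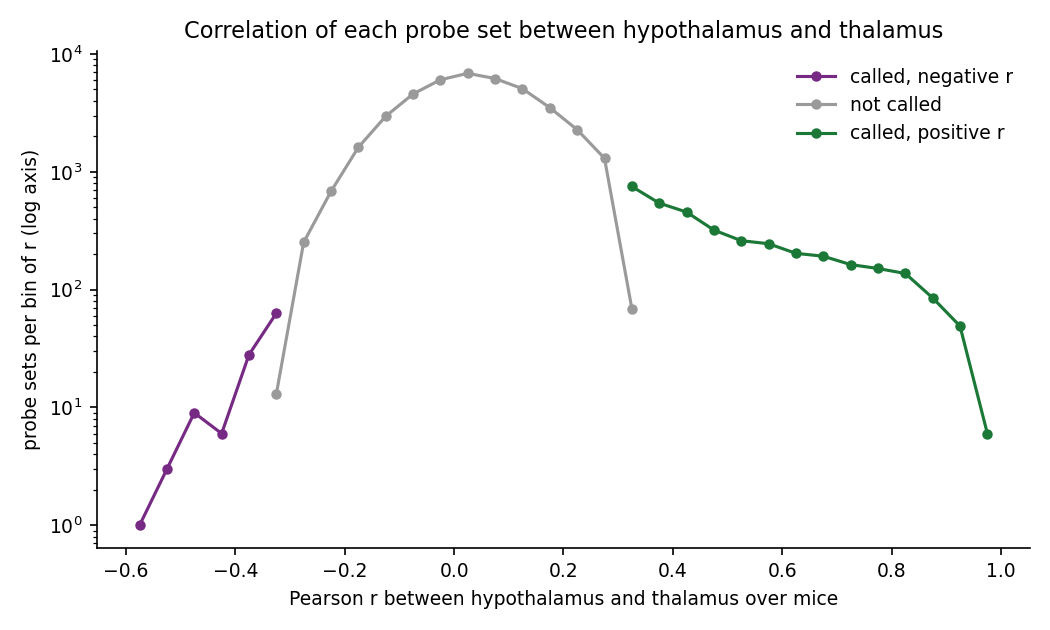
Number of probe sets by Pearson r between hypothalamus and thalamus over 81 to 88 mice, in bins of r, on a log axis. Grey points are probe sets not called, green points the 3558 called with a positive r and purple points the 110 called with a negative r; the called side above 0 reaches r = 0.979 and the side below 0 ends at r = -0.566.

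Of 64 genes in the 7 lists of tissue at or near the border, 3 were called (4.69%, beside 9.01% of all genes), and lists this short would hold few calls at the share over all genes. None of 11 measured genes of the zona incerta and prethalamus was called, and their r lay between -0.147 for Pax6 and 0.249 for Meis2, both transcription factors of prethalamic GABA neurons. None of 4 genes of the reticular nucleus and of GABA neurons was called, with r between -0.0439 for Gad2, which makes the transmitter GABA, and 0.0944 for the calcium-binding protein gene Pvalb. None of 7 genes of the subthalamic and mammillary area was called, and the lowest was Foxa1, a transcription factor of midbrain and subthalamic neurons, at r = -0.288. None of 8 neuropeptide genes of the lateral hypothalamus was called, with r between -0.293 for Hcrt and 0.226 for Gal. The medians of these lists were 0.0877, 0.0299, -0.003 and -0.0806, beside 0.0533 over all 18193 genes.

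The lining of the third ventricle, the choroid plexus and the habenula gave 3 called genes among them. Ccdc153, a gene of ciliated ependymal cells, had values from 7.86 to 10.64 in hypothalamus (median 9.21) and from 5.95 to 7.58 in thalamus (median 6.87). Mice high in hypothalamus were seldom low in thalamus: of the 21 mice highest in hypothalamus, 11 were among the 21 highest in thalamus and 0 among the 21 lowest. Its r was 0.724 (permutation p = 1e-05, the smallest that 100000 permutations can give; rho 0.701, permutation p = 1e-05; r = 0.70 with the 2 most extreme mice left out; adjusted p = 1.87e-13), 0.70 in the later and 0.846 in the earlier mice. Foxj1, the transcription factor that makes ependymal cells ciliated, had r = 0.064, and Tmem212 and Dynlrb2, also of ciliated cells, lay close to 0 as well. Ccdc153 was also positive in the other pairs of regions, from 0.384 for hippocampus and cortex to 0.611 for hypothalamus and cortex.

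Dio2, the deiodinase that makes active thyroid hormone in tanycytes and astrocytes, was called at r = 0.398 (adjusted p = 0.00242), 0.401 in the later and 0.414 in the earlier mice. Of the 3 probe sets of Dio2, only 1 was called. The other 10 genes of the ventricle list were not called, with the orphan receptor gene Gpr50 of tanycytes lowest at -0.212. Of 8 habenula genes, Chrna3, a nicotinic receptor subunit, was called at r = 0.408 (adjusted p = 0.00179), while its partner subunit Chrnb4 had r = -0.250 and was not (adjusted p = 0.174). Chrna3 too had 3 probe sets, of which only 1 was called. Pou4f1, the transcription factor that defines medial habenula neurons, had r = 0.180.

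**Figure D2:**
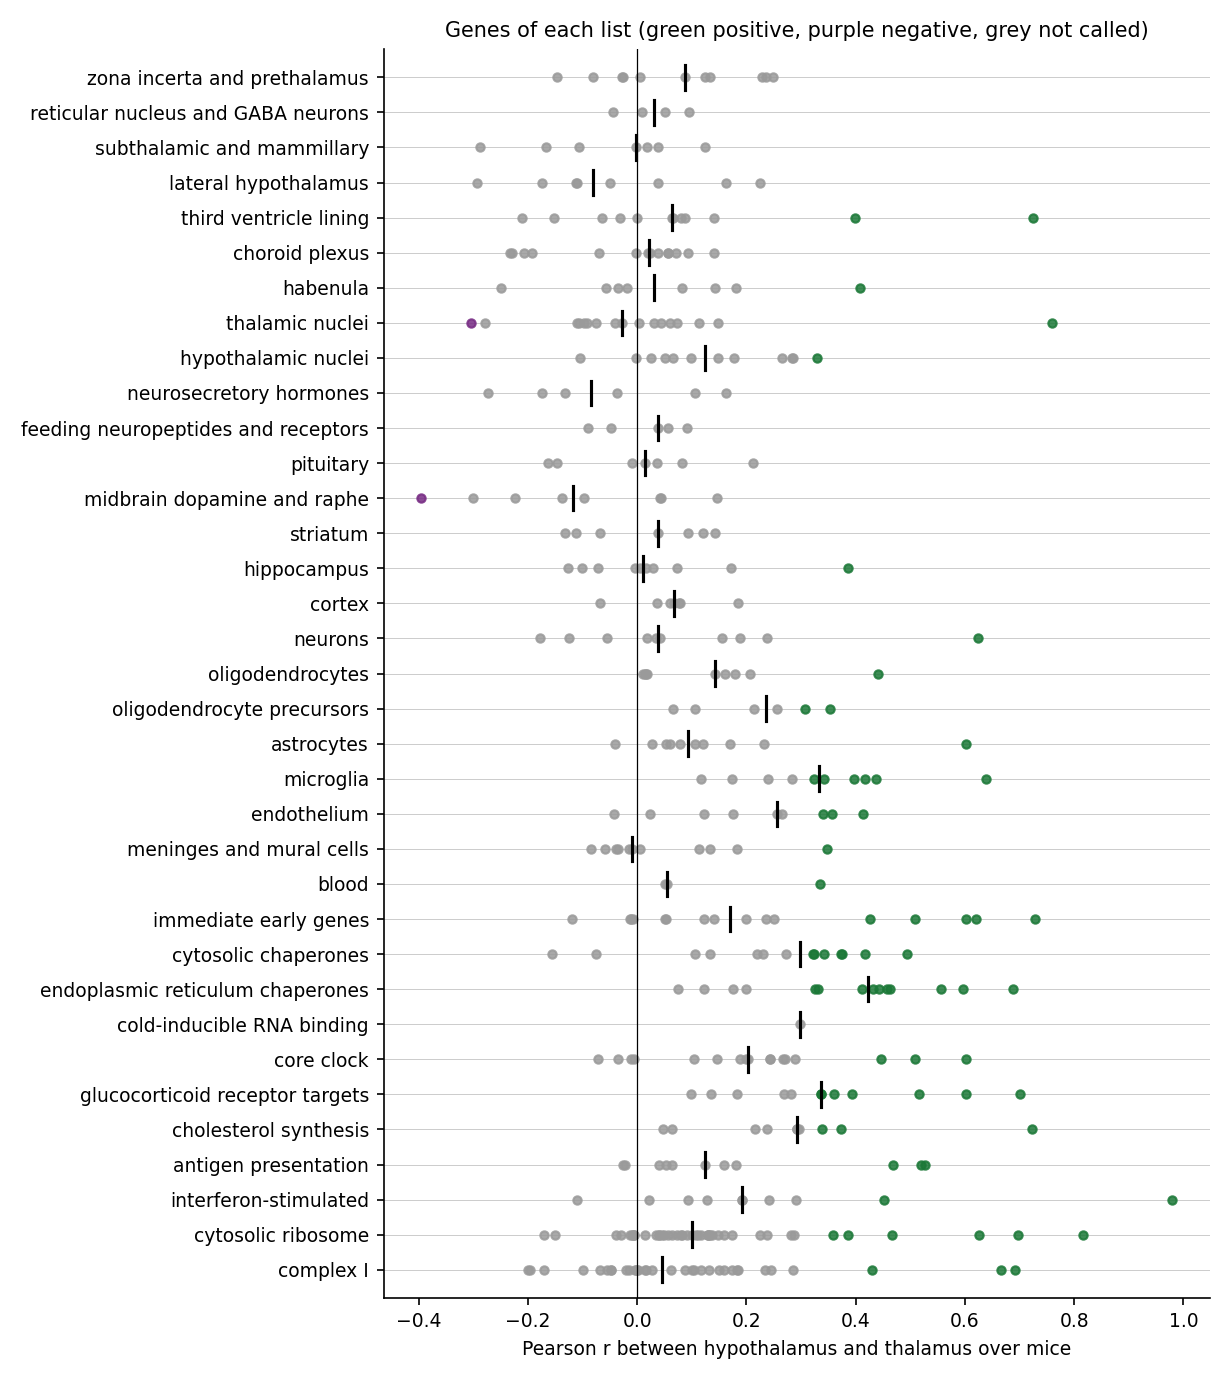
Pearson r between hypothalamus and thalamus (x axis) of each measured gene of 35 lists (rows); green points were called with a positive r, purple points with a negative r, grey points were not called, and the black bar is the median of the list. Lists of border tissue and of neighbouring regions centre near 0, while the endoplasmic reticulum chaperones centre at 0.422.

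The choroid plexus, the tissue that makes cerebrospinal fluid, showed a pattern of its own within thalamus. Ttr, its carrier protein for thyroid hormone, ran from 5.74 to 9.58 in hypothalamus (median 7.22) and from 6.81 to 14.35 in thalamus (median 10.64). Within hypothalamus the 10 pairs among Ttr, Kl, Folr1, Clic6 and Kcne2 had r between -0.0216 and 0.318. Within thalamus the same pairs had r between 0.566 and 0.866, and across the regions the 25 pairs lay between -0.232 and 0.219. None of 14 choroid plexus genes was called between the regions, with Ttr at r = 0.0569.

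Among the dopamine genes, Th was called with a negative r. Th, which encodes the enzyme that limits dopamine synthesis, ran from 13.06 to 14.66 in hypothalamus (median 13.75) and from 9.10 to 10.24 in thalamus (median 9.81). Of the 21 mice highest in hypothalamus, 12 were among the 21 lowest in thalamus and 2 among the 21 highest. Its r was -0.396 (permutation p = 0.00016; rho -0.333, permutation p = 0.00182; r = -0.404 with the 2 most extreme mice left out; adjusted p = 0.00286). With 5 principal components of each region taken out, r was -0.298 and the call was lost (adjusted p = 0.0948). Within the later mice r was -0.480 and within the earlier mice 0.0798, and the difference between these was not called over all probe sets.

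Slc6a3, the dopamine transporter, lay just outside the threshold at r = -0.30 (adjusted p = 0.0563, rho -0.259). This gene was picked after its values were seen. It had r = -0.411 in the later and 0.224 in the earlier mice. Its values in hypothalamus ran from 14.42 to 19.42, beyond what a log2 array value can usually reach, against 9.81 to 11.0 in thalamus, so only the order and spacing of mice can be read there. Foxa1 lay at -0.288 (adjusted p = 0.0728), with -0.265 in the later and -0.375 in the earlier mice. Nr4a2, a transcription factor of dopamine neurons, had r = -0.224, Slc18a2, the vesicular monoamine transporter, -0.139, and Ddc, the decarboxylase shared by dopamine and serotonin neurons, -0.097. The serotonin genes Tph2 and Slc6a4 stood at 0.0424 and 0.147. Of 8 genes measured in the list of midbrain dopamine and raphe neurons, 1 was called with a negative r and 0 with a positive r, and the median was -0.118.

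**Figure D3:**
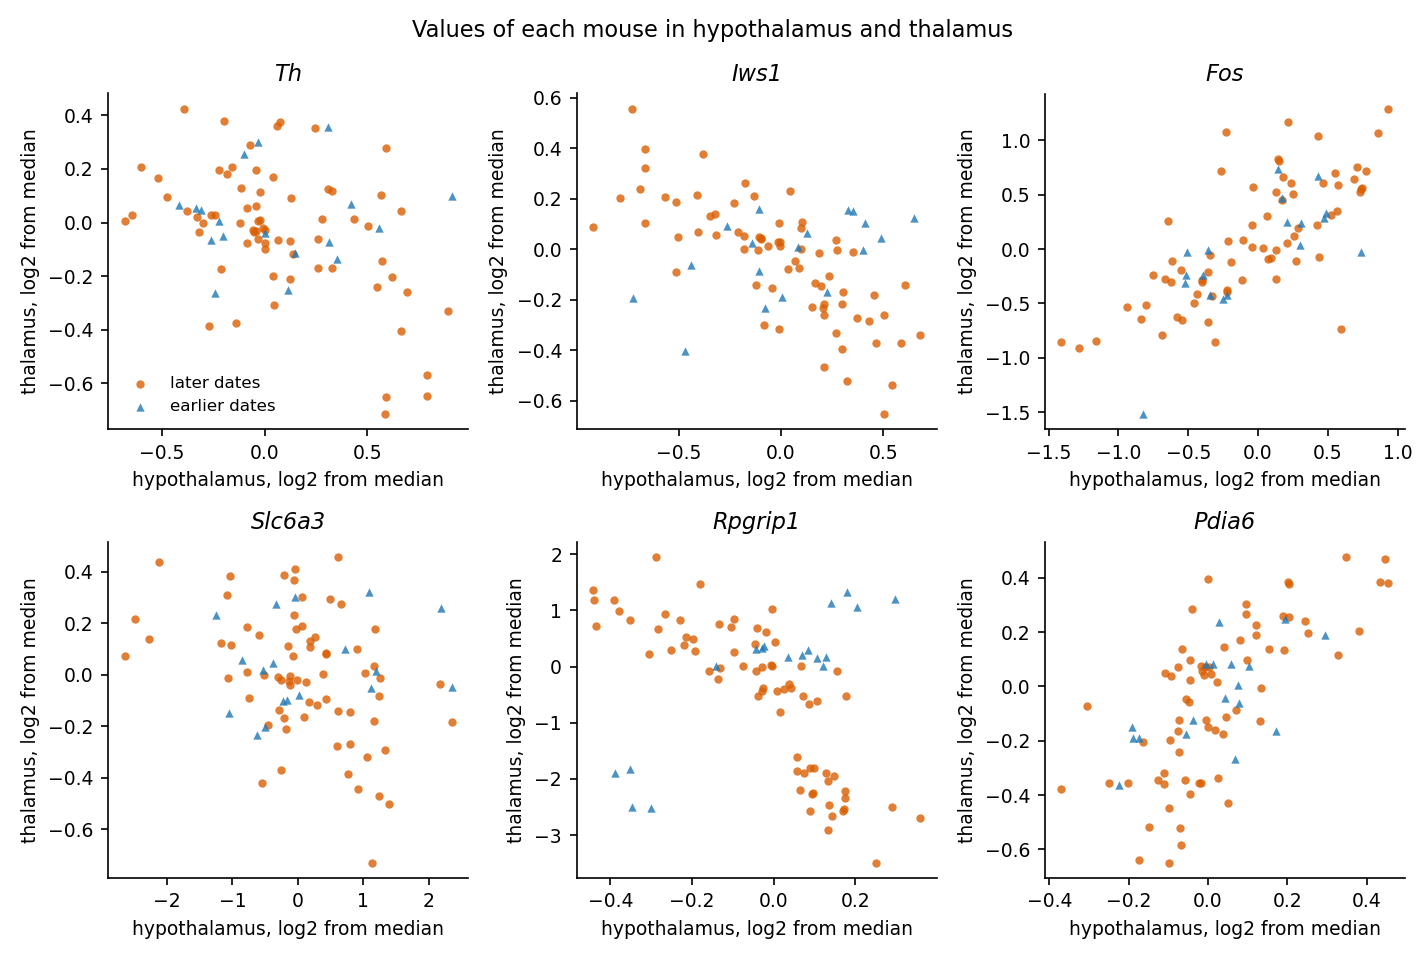
Values of each mouse in hypothalamus (x axis) and thalamus (y axis), as log2 difference from the median of the region, for 6 genes; orange points are the 70 mice of the later dates and blue triangles the 18 of the earlier dates. Fos and Pdia6 slope up in both sets of mice, Th slopes down in the later mice, and for Iws1 and Rpgrip1 the later mice slope down (r = -0.762 and -0.819) while the earlier mice slope up (r = 0.570 and 0.919).

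Within each region the dopamine genes went together. Th and Slc6a3 had r = 0.837 in hypothalamus and 0.788 in thalamus. Over Th, Slc6a3, Slc18a2, Ddc and Foxa1, a set put together after values of these genes were known, the 10 pairs within hypothalamus had r between 0.417 and 0.837 and the 10 within thalamus between 0.362 and 0.788. All 25 pairs of a gene in hypothalamus with a gene in thalamus had r below 0, from -0.396 to -0.097. Because the genes went together within each region, these 25 values are not separate observations. In the later mice alone the 25 pairs had r from -0.480 to -0.166, while in the earlier mice 16 of the 25 were above 0 and r ran from -0.516 to 0.654. Th in hypothalamus with Slc6a3 in thalamus had r = -0.474 in the later and 0.292 in the earlier mice. In the other pairs of regions Th had r between -0.132 for hippocampus and cortex and 0.181 for hypothalamus and hippocampus.

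Of the 8 neuropeptide genes of the lateral hypothalamus, 5 had r below 0 and none was called. Hcrt, the orexin precursor made by wake-promoting neurons, ran from 12.63 to 15.02 in hypothalamus (median 13.78) and from 3.58 to 10.09 in thalamus (median 6.89). Its r was -0.293 (adjusted p = 0.0681), with -0.258 in the later and -0.374 in the earlier mice. Hcrt too was picked after its values were seen. Of the 21 mice highest in hypothalamus, 11 were among the 21 lowest in thalamus and 4 among the 21 highest. Pmch, the precursor of melanin-concentrating hormone, which is made in neighbouring cells, had r = -0.111. Hcrt and Pmch went together closely within thalamus, at r = 0.905 (0.867 in the later and 0.975 in the earlier mice), and less closely within hypothalamus, at 0.408.

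Hormone genes of the paraventricular and supraoptic nuclei were not called either. Avp (vasopressin) had r = 0.107, Oxt (oxytocin) -0.133, Trh (thyrotropin-releasing hormone) -0.173 and Crh (corticotropin-releasing hormone) -0.273, the last with adjusted p = 0.116 and rho -0.376. Within thalamus, Avp, Oxt and Trh went together, with r between 0.586 and 0.766, while within hypothalamus the same pairs had r between -0.0425 and 0.399. Crh was less tied to them within thalamus, with r from 0.161 for Trh to 0.354 for Oxt. The pair farthest from 0 across regions was Crh in hypothalamus with Oxt in thalamus, at r = -0.445, with -0.378 in the later and -0.664 in the earlier mice. In all, 152 pairs of genes within and across the regions were computed. Permutation tests were run on them as well. Their p-values are left out, since the genes were chosen with earlier results of these data known, and r is given as a description.

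**Figure D4:**
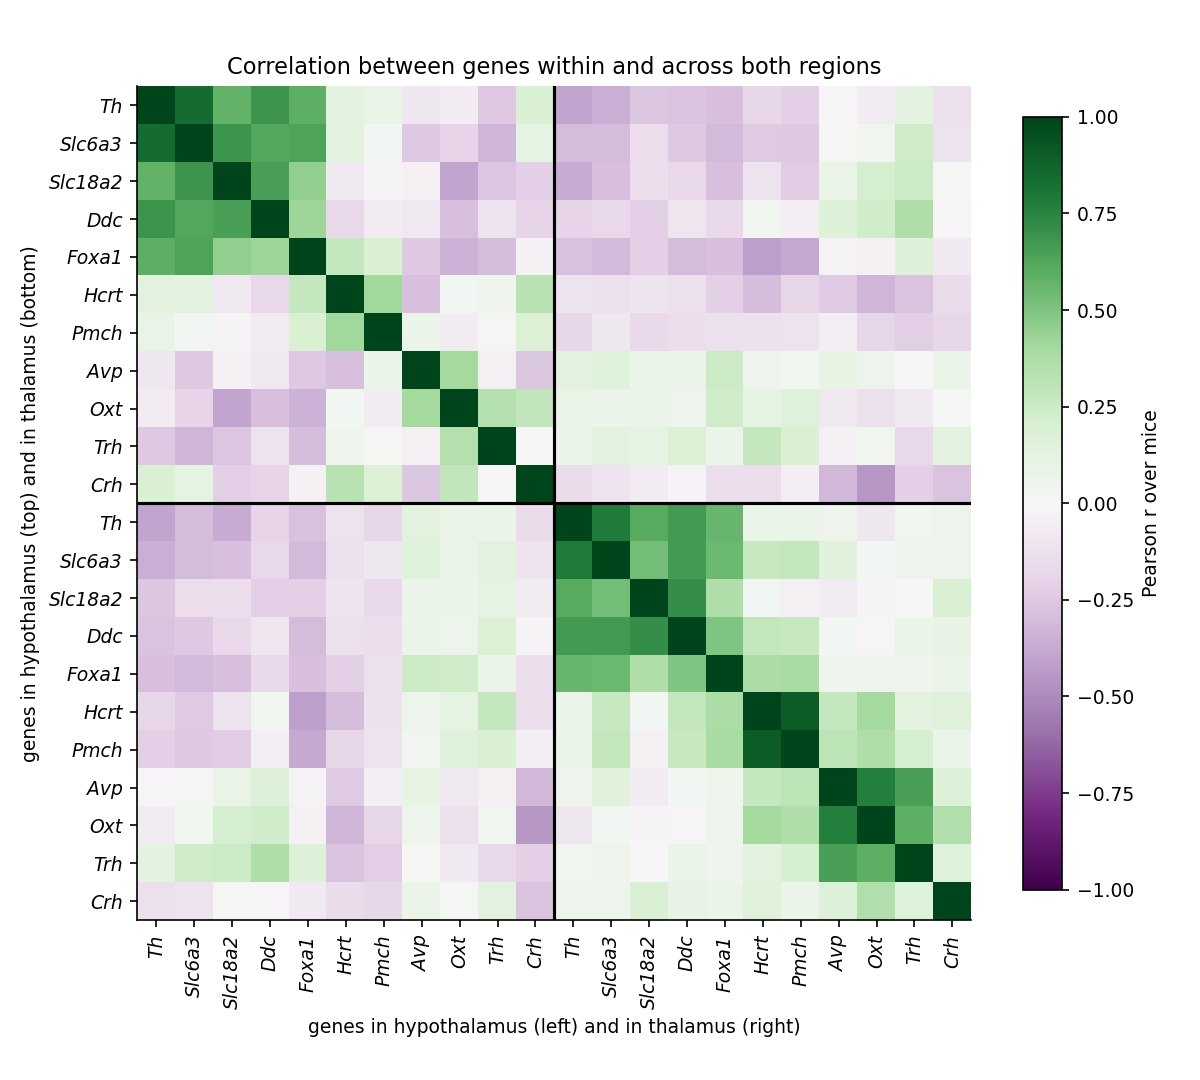
Pearson r over mice between 11 genes in hypothalamus and the same 11 genes in thalamus; green is a positive and purple a negative r, and the black lines part hypothalamus (left and top) from thalamus. The dopamine genes form a green block within each region and a purple block across the regions, where all 25 values lie below 0 over all mice. These 25 values are not separate observations.

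Markers of the regions themselves had few calls. The mean of the standardised values of the hypothalamic nuclei genes had r = 0.401 (0.417 in the later and 0.332 in the earlier mice), while that of the thalamic nuclei genes had r = -0.182. Of 17 genes of thalamic nuclei, Necab1, a calcium-binding protein of neurons, was called with r = 0.760 (0.712 in the later and 0.935 in the earlier mice) and was positive in every other pair of regions as well, from 0.588 to 0.901. Gbx2, a homeobox gene that specifies thalamic neurons in the embryo, was the last gene inside the threshold on the negative side, with r = -0.304 and adjusted p = 0.0493. Gbx2 had r = -0.312 in the later and -0.283 in the earlier mice, and rho was -0.239 with an adjusted p of 0.198. Its r was -0.0859 once the summed scores of thalamic and hypothalamic nuclei genes, which contain Gbx2, were taken out. Tcf7l2 had r = 0.0314.

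Of 12 genes of hypothalamic nuclei, Calcr, the calcitonin receptor, was called at r = 0.330 (adjusted p = 0.0258), with 0.375 in the later and 0.0764 in the earlier mice, and 2 of the 12 had r below 0. Otp and Irs4 had 0.286 and 0.283 without being called. None of 7 pituitary, 7 striatal and 7 cortical genes and none of 6 hormone and 5 feeding genes was called. Of 10 hippocampal genes, 1 was called, Dsp, a desmosome gene of dentate granule cells, at r = 0.386.

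The 10 most negative genes were in none of the lists. Iws1, which encodes a partner of the transcription elongation factor Spt6, led with r = -0.566 (permutation p = 1e-05; rho -0.560, permutation p = 1e-05; r = -0.562 with the 2 most extreme mice left out; adjusted p = 3.65e-07). Its values ran from 5.47 to 7.07 in hypothalamus (median 6.39) and from 8.64 to 9.85 in thalamus (median 9.29). Of the 22 mice highest in hypothalamus, 11 were among the 22 lowest in thalamus and 4 among the 22 highest.

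After Iws1 came Wdr82, a subunit of a histone methyltransferase complex, at -0.495, Nudt6, a gene transcribed antisense to Fgf2, at -0.494, Ing1, a reader of methylated histone H3, at -0.491, Rab6a, a GTPase of the Golgi, at -0.478, Bcat1, a branched-chain aminotransferase, at -0.452, and Zadh2, a dehydrogenase, at -0.399. For 2 more, the mice fell into separate clusters in hypothalamus, so no pooled value is given. Lamtor3, a scaffold of nutrient signalling at the lysosome, had r = -0.0444 in the 15 mice of the lower and -0.240 in the 70 of the higher cluster. Rab3gap1, a regulator of the vesicle GTPase Rab3, had r = 0.0187 in 74 mice of the lower and -0.643 in 12 of the higher cluster. In these 12 mice rho was -0.329 (permutation p = 0.298), and r was -0.455 with the 2 most extreme mice left out.

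Genes called negative often had an r of another size or sign in the earlier than in the later mice. For 6 of the 46 genes this difference was called. All 46 genes called with a negative r were negative in the later mice, and 27 of 46 were negative in the earlier mice, against 1515 of the 1593 positive genes that were positive in the earlier mice. Over all 45037 probe sets, 18576 were below 0 and 26461 above 0 in the earlier mice. Since the later mice are 70 of the 88 that made the calls, their own sign is no independent check. Iws1 had r = -0.762 in the later and 0.570 in the earlier mice, Ing1 -0.728 and 0.632, and Nudt6 -0.626 and 0.403. A Fisher z test of the difference in r between later and earlier mice, made over every probe set after the split had been seen, called 79 of 45037 (0.175%), of which 57 were negative in the later and positive in the earlier mice. Of the 46 negative genes, 12 had a more negative r in the earlier mice, among them Enkd1 at -0.617 (-0.235 in the later mice), Gm11487 at -0.666 (-0.224) and Prima1 at -0.573 (-0.169). The differences of Enkd1, Gm11487 and Prima1 were not called (adjusted p = 0.79, 0.70 and 0.79 by Fisher's z). Of the 46 differences 6 were called, beside 0.175% of all probe sets. All 6 genes were negative in the later and positive in the earlier mice. Adjusted p was 2.51e-05 for Iws1, 1.88e-05 for Ing1 and 0.0329 for Nudt6. Wdr82, Rab6a, Bcat1 and Zadh2 also had weaker or opposite values in the earlier mice, from -0.0318 to 0.214, and their differences were not called.

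Rpgrip1, which encodes a protein of the photoreceptor cilium, showed the turn of sign most fully. In thalamus its mice formed 2 clusters, so its r also holds the gap between them. In the later mice, the 22 of the lower thalamus cluster had hypothalamus values from 10.14 to 10.44 (median 10.21), and the 48 of the higher cluster had 9.64 to 10.26 (median 9.99). In the earlier mice the order was turned: the 4 of the lower cluster had 9.69 to 9.78 (median 9.73), and the 14 of the higher cluster had 9.94 to 10.38 (median 10.17). The earlier clusters did not overlap in hypothalamus, and the later ones overlapped. Its r was -0.819 in the later and 0.919 in the earlier mice (adjusted p of the difference 4.47e-17).

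Over the 6 pairs of regions, the sign in the later mice depended on which regions were paired. There, Rpgrip1 had r = 0.791 for hypothalamus and hippocampus and 0.983 for thalamus and cortex, but between -0.844 and -0.815 for the 4 pairs that cross these. In the earlier mice all 6 pairs were positive, from 0.893 to 0.970, each over only 8 to 18 mice. Iws1 had the same signs in the later mice, with 0.736 for hypothalamus and hippocampus, 0.622 for thalamus and cortex and -0.778 to -0.604 for the 4 others. In the earlier mice its 6 values were positive, from 0.273 for hippocampus and cortex (8 mice) to 0.613 for hypothalamus and cortex (15 mice). Over all mice, Wdr82, Nudt6, Ing1, Rab6a and Bcat1 had these signs too. Their r was 0.548 to 0.707 for hypothalamus and hippocampus, 0.278 to 0.6855 for thalamus and cortex and -0.613 to -0.0713 for the 4 others. Lamtor3 and Rab3gap1 had the same signs, in values that also hold the gap between clusters. Zadh2 differed in hippocampus and cortex, at 0.0443. Hippocampus had 769 probe set means off the usual scale and hypothalamus 335, against 0 in thalamus and in cortex. The part of the authors' processing in these signs was not tested.

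**Figure D5:**
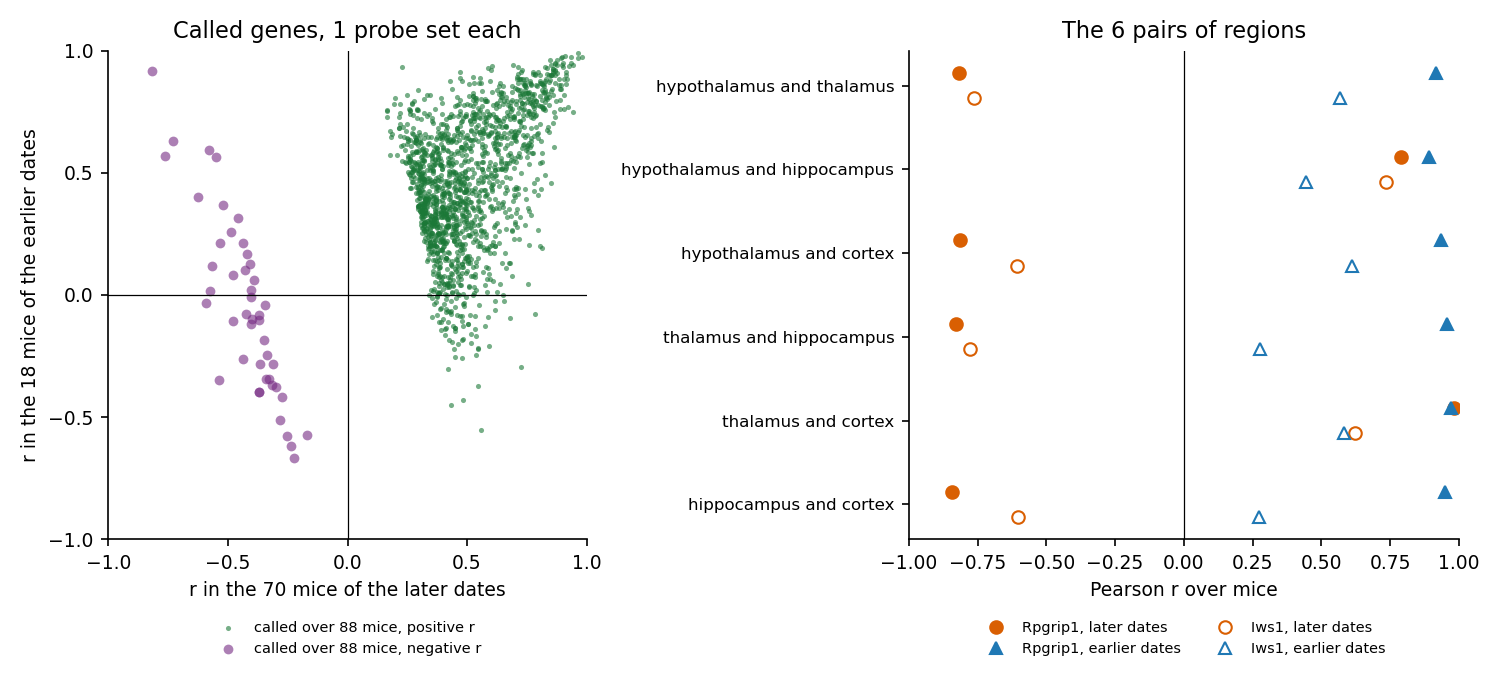
Left, r of each called gene in the 70 mice of the later dates (x axis) and the 18 of the earlier dates (y axis), green for a positive and purple for a negative call over 88 mice. Right, r of Rpgrip1 (filled) and Iws1 (open) in the 6 pairs of regions, in orange for later and blue for earlier mice; the 4 pairs that cross from hypothalamus or hippocampus to thalamus or cortex are negative in later mice, from -0.844 to -0.604, and positive in earlier mice. The values of earlier mice rest on 8 to 18 mice per pair.

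Other probe sets of the same genes were not called negative. Of the 46 genes, 25 had several probe sets; none of the 25 had another probe set with a called negative r, and 10 had one with a called positive r. Bcat1 is an example, with r = -0.452 on the probe set used and 0.473 and 0.545 on its other probe sets. Rab6a had 0.654 on another probe set, and Rpgrip1 had 0.569. Among the positive genes, 337 of 876 with several probe sets had another that was called positive, and 8 had one called negative.

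Cortex and hippocampus, which share no array with this pair of regions, were compared in 69 mice. Mice with arrays of all these regions are in both comparisons. The pair also crosses from hypothalamus or hippocampus to thalamus or cortex. In later mice its r was -0.844 for Rpgrip1, -0.6035 for Iws1 and -0.467 for Ing1. Negative calls in it are therefore no separate check of the negative sign between hypothalamus and thalamus. Of the 110 probe sets negative between hypothalamus and thalamus, 11 were called negative between cortex and hippocampus and 0 positive, with 77 below 0 and a median r of -0.100. Of the 3558 positive ones, 1890 were called positive and 2 negative, with a median of 0.379. Over all 45037 probe sets, 5.53% were called positive and 0.215% negative in that pair, 17440 were below 0 and the median was 0.0415. Probe sets called in the later mice alone can be read in the earlier mice: of 3177 positive ones (7.05%), 2816 were above 0, with a median r of 0.435, and of 157 negative ones (0.349%), 42 were below 0 and 115 above, with a median of 0.190. The shares above 0 in the earlier mice were 88.6% of the positive and 73.2% of the negative ones, beside 58.8% of all probe sets. Over all probe sets the median in the earlier mice was 0.0628.

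Immediate early genes, which neurons switch on within minutes of activity, went together in part. Of 16 genes, 5 were called with a positive r and 0 with a negative r (31.2%, beside 8.76% of all genes), and the list median was 0.170. Fos, a transcription factor widely used to mark active neurons, ran from 5.13 to 7.47 in hypothalamus (median 6.54) and from 7.79 to 10.59 in thalamus (median 9.30). Of the 22 mice highest in hypothalamus, 12 were among the 22 highest in thalamus and 1 among the 22 lowest. Its r was 0.729 (permutation p = 1e-05; rho 0.730, permutation p = 1e-05; r = 0.706 with the 2 most extreme mice left out; adjusted p = 7.17e-14), 0.735 in the later and 0.722 in the earlier mice. Egr1 had r = 0.620, Nr4a1 0.601, the phosphatase gene Dusp1 0.509 and the synaptic gene Arc 0.427. Dusp1 and Arc had 0.625 and 0.497 in the later but 0.0118 and 0.0879 in the earlier mice. Fosb, Egr3, Npas4 and Homer1 had r between -0.119 and -0.008.

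Chaperones of the endoplasmic reticulum (ER), which fold secreted proteins, had the highest share of called genes among the 35 lists. The lists were chosen with earlier results of these data known, so this rank is a description. Of 14 genes, 10 were called with a positive r and 0 with a negative r (71.4%), and the median was 0.422. Pdia6, a protein disulfide isomerase, ran from 10.15 to 10.97 in hypothalamus (median 10.52) and from 9.05 to 10.18 in thalamus (median 9.70). Of the 22 mice highest in hypothalamus, 15 were among the 22 highest in thalamus and 0 among the 22 lowest. Its r was 0.688 (permutation p = 1e-05; rho 0.714, permutation p = 1e-05; r = 0.658 with the 2 most extreme mice left out; adjusted p = 9.40e-12), 0.698 in the later and 0.646 in the earlier mice.

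Manf, a secreted ER stress protein, followed Pdia6 at 0.597, then the chaperones Hyou1 at 0.556, Creld2 at 0.463, Dnajc3 at 0.457, Sdf2l1 at 0.443, the transcription factor Xbp1 at 0.432, Calr (calreticulin) at 0.412, Hspa5 (BiP, the main ER chaperone) at 0.331 and Dnajb11 at 0.325. Hsp90b1, Herpud1, Pdia4 and Pdia3 were not called, with r between 0.0746 and 0.20. In the earlier mice Hyou1 had r = 0.129, Creld2 -0.0922 and Xbp1 -0.00728. The mean of the standardised values of all 14 genes had r = 0.712 over all mice, 0.769 in the later and 0.0145 in the earlier mice; this difference was not tested. Pdia6, Manf and Calr had r of 0.539 to 0.646 in the earlier mice.

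Genes of this family are known to be switched on in ER stress through a promoter element called ERSE, which is CCAAT followed by 9 open letters and then CCACG. RefSeq promoters (assembly GRCm38.p6, 250 bases before to 50 after the start of a transcript) were searched for it on both strands. They covered 12 of the 14 genes, and 6 held the element, against 0.137% of 27025 genes with a promoter in the table. Of the 8 called genes covered, 5 held it. The sites of the called genes are shown so that their letters can be compared; the promoters of Dnajb11, Sdf2l1 and Xbp1, also called, held none. Each is 5′ to 3′ on its own strand, with the fixed letters in capitals and the open letters in lower case.
Pdia6, chr12:17266491-17266509, + strand: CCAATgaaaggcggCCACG
Creld2, chr15:88819520-88819538, - strand: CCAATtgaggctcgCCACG
Dnajc3, chr14:118937827-118937845, + strand: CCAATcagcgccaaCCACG
Calr, chr8:84847075-84847093, + strand: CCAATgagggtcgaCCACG
Hspa5, chr2:34772025-34772043, + strand: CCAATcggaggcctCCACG
Hsp90b1, which was not called at r = 0.20, held 2 such elements, so the letters do not part called from other genes. A match is a description of the sequence, and binding was not measured.

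Chaperones of the cytosol, which respond to heat and misfolded protein, had 7 of 14 genes called with a positive r and 0 with a negative r (50%), and a median of 0.298. Hspa1b, an inducible Hsp70, ran from 10.95 to 12.78 in hypothalamus (median 11.93) and from 6.24 to 8.51 in thalamus (median 7.54), and its r was 0.493 (adjusted p = 4.67e-05). It had r = 0.726 in the later and -0.296 in the earlier mice, and this difference was called (adjusted p = 0.0196). The other called members were Dnaja1 at 0.417, Hspb1 at 0.375, Dnajb1 at 0.374, Hspa1a at 0.343, Hsph1 at 0.324 and Chordc1 at 0.322. Hspb1 and Hspa1a had 0.455 and 0.389 in the later but -0.011 and 0.0134 in the earlier mice. Hspa1a and Hspa1b are near-identical copies, so their probe sets may share signal. Hspa8, the constitutive Hsp70, had the lowest r of the list at -0.156.

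Targets of the glucocorticoid receptor, which carries the signal of the stress hormone corticosterone, had 7 of 12 genes called with a positive r and 0 with a negative r (58.3%), and a median of 0.336. Sgk1, a kinase gene switched on by the receptor, ran from 10.85 to 11.95 in hypothalamus (median 11.27) and from 9.43 to 10.75 in thalamus (median 9.94). Of the 21 mice highest in hypothalamus, 14 were among the 21 highest in thalamus and 1 among the 21 lowest. Its r was 0.70 (permutation p = 1e-05; rho 0.654, permutation p = 1e-05; r = 0.667 with the 2 most extreme mice left out; adjusted p = 4.71e-12), 0.690 in the later and 0.762 in the earlier mice. The inhibitor gene Nfkbia had 0.602, the metallothioneins Mt1 and Mt2 0.516 and 0.393, Tsc22d3 (GILZ) 0.361, Errfi1 0.337 and Zbtb16 0.336. Fkbp5, a textbook target, had r = 0.136 and was not called. Sgk1 had lower values in the other pairs of regions, from 0.199 for hippocampus and cortex to 0.490 for thalamus and cortex; the difference between pairs was not tested.

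Among 17 clock genes, 3 were called with a positive r: Npas2 at 0.601, Dbp at 0.509 and Rorb at 0.446. Dbp, an output of the clock, ran from 11.12 to 11.66 in hypothalamus (median 11.37) and from 10.89 to 11.56 in thalamus (median 11.23), with r of 0.491 in the later and 0.601 in the earlier mice. The core genes Arntl, Cry1 and Cry2 lay between -0.073 and -0.005, and Per1, Per2 and Per3 between 0.188 and 0.289 without a call. The mean score of the list had r = 0.0608.

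Of the cell type lists, microglia had the highest share, with 6 of 10 genes called with a positive r and 0 with a negative r (60%) and a median of 0.333. Ctss, a lysosomal protease of microglia, ran from 10.71 to 12.07 in hypothalamus (median 11.50) and from 9.46 to 11.58 in thalamus (median 10.53), and its r was 0.638 (permutation p = 1e-05; adjusted p = 1.27e-09), 0.597 in the later and 0.877 in the earlier mice. The complement genes C1qc, C1qa and C1qb had 0.436, 0.396 and 0.324, the growth factor receptor gene Csf1r 0.418 and the adaptor gene Tyrobp 0.342. Trem2, Cx3cr1, Itgam and Aif1 were not called, with r between 0.117 and 0.282. The mean score of the list had r = 0.579, with 0.562 in the later and 0.695 in the earlier mice.

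Other cell types had fewer called genes. Endothelium had 3 of 9 (Cldn5, Tek and Vwf, r of 0.414, 0.357 and 0.339), and oligodendrocyte precursors 2 of 6 (Gpr17 at 0.352 and Pdgfra at 0.308). Vwf and Pdgfra had 0.413 and 0.349 in the later but -0.0171 and 0.0203 in the earlier mice. Oligodendrocytes had 1 of 9 (Opalin, 0.441, with 0.584 in the later and 0.0633 in the earlier mice), blood 1 of 3 (Alas2, 0.335), and meninges and mural cells 1 of 11 (Rgs5, 0.348). Astrocytes had 1 of 10, the filament gene Gfap, at 0.601 with 0.523 in the later and 0.814 in the earlier mice. Neurons had 1 of 10, the ubiquitin hydrolase gene Uchl1, at 0.624.

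Metabolic, immune and ribosomal lists had shares from 8.82% to 27.3%. Cholesterol synthesis had 3 of 11 genes called, led by the desaturase gene Sc5d at 0.723, with Hmgcs1 at 0.374 and Fdft1 at 0.339. Antigen presentation had 3 of 11, H2-D1 at 0.526, H2-K1 at 0.519 and B2m at 0.469; class I genes differ in sequence between strains and resemble each other, so their probe sets may bind alleles unequally. Interferon-stimulated genes had 2 of 10, Oasl2 at 0.451 and Xaf1, described below. Ribosomal protein genes had 6 of 43 (14%), with Rps27 at 0.359, Rpl13a at 0.386, Rps25 at 0.625 and Rps4l at 0.697. Rps6 formed clusters in hypothalamus, with r of 0.479 in the lower and 0.606 in the higher, and Rpl11 is described below. Complex I genes had 3 of 34 (8.82%, near the share over all genes), Ndufs5 at 0.691, Ndufa12 at 0.667 and Ndufa3 at 0.431, the last with 0.532 in the later and -0.0866 in the earlier mice. The cold-inducible gene Cirbp had r = 0.297 and was not called.

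Of the genes with the highest correlations, most were in none of the lists. Shisa4, which encodes a membrane protein, ran from 10.82 to 12.77 in hypothalamus (median 11.89) and from 9.03 to 11.06 in thalamus (median 10.22), with r = 0.913 (permutation p = 1e-05; rho 0.894, permutation p = 1e-05; adjusted p = 3.96e-32). Of the 22 mice lowest in hypothalamus, 21 were among the 22 lowest in thalamus. Without clusters by the gap rule, H2-Bl had 0.918, the phospholipase gene Pla2g4e 0.907, Abhd1 0.903, Hddc3 0.901, Gm26782 0.896, Efhd2 0.888, the complement regulator gene Cd59a 0.888 and the ubiquitin ligase gene Mid1 0.883. In the earlier mice Shisa4 and these 8 genes had r between 0.751 and 0.974.

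Where mice formed separate clusters, r is given within them. Ang (angiogenin, a ribonuclease) had clusters in hypothalamus, with r = 0.548 in 25 mice of the lower and 0.802 in 63 of the higher. Xaf1, an interferon-stimulated gene of cell death, had medians of 3.02 and 7.51 in the clusters of hypothalamus and of 4.29 and 8.93 in thalamus, with r = 0.473 in the 18 mice of the lower and 0.831 in the 66 of the higher. Galc, the lysosomal galactosylceramidase, had r = 0.631 in 15 and 0.740 in 67 mice. Gdpd3, a phospholipase D, had 0.371 in 19 and 0.839 in 69 mice, with permutation p = 0.12 in the lower cluster. Pttg1 (securin, which holds sister chromatids together) had 0.858 in 19 and 0.581 in 66 mice, and Wdfy1, an endosomal protein gene, 0.471 in 15 and 0.807 in 71. Rpl11, a ribosomal protein gene, had -0.647 in 10 and 0.253 in 77 mice, so the positive r over all its mice also holds the gap between clusters. In the 10 mice r was -0.365 with the 2 most extreme left out. When clusters were sought in the mean of the standardised values of both regions, 35 of the 1593 genes called positive had them, as did 1 of the 46 called negative.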

How the data were processed

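Per the submitters' processing notes, the authors made the values with affy and RMA; the sources used here give no versions. The deposited values, 45037 probe sets by 383 arrays, were read as log2 intensities, although 335 probe set means in hypothalamus and 769 in hippocampus lay off the usual log2 scale. The values carry no read depth: the number of mice limits their precision. About 0.2% were missing (0.202% in hypothalamus, 0.227% in thalamus). Cohort explained a median of 2.07% of a probe set's variance in hypothalamus and 2.49% in thalamus, where chance gives 9.2%. Hybridization date explained a median of 0.269% in hypothalamus and 0.865% in thalamus, where chance gives 2.3%. Going by these values, cohort and date effects appear to have been taken out before deposit. In that case p-values can be somewhat too small. Trait tables were not used here.

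Pearson r was computed over mice with both values, with p from the t distribution of r (scipy 1.17.1, numpy 2.4.6, python 3.11.15), adjusted over all probe sets. Named genes and the pairs of genes had 100000 permutations of mice, two-sided. Separate clusters mean a gap over 0.45 SD between neighbouring mice with at least 10% of mice on each side. A difference in r between later and earlier mice was tested with Fisher's z. Scripts were tested on simulated data.

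Of the probe sets, 34945 had 1 gene symbol, 932 several and 9160 none; a gene was read on its probe set with the highest thalamus mean. Named were the 10 highest genes without clusters, 5 with clusters, the 10 lowest, and called members of 35 lists (at most 8 each), 95 genes in all, plus others chosen after their values were seen. Members and lists were chosen with earlier results of these data known. Alternatives covered the correlation measure, missing values, dim probe sets, scaling, cohort, date, RNA integrity, principal components, extreme mice, nuclei scores and the threshold.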

Additional observations from a re-analysis of the deposited data

Results flagged for a closer look

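For 7 of 146 genes examined, r in the later mice differed from r in the earlier mice by Fisher's z adjusted over all 45037 probe sets. These 146 genes were the named ones and the 46 with a negative call, so they are a chosen set. Rpgrip1 had a later minus earlier difference of -1.74, Ing1 of -1.36, Iws1 of -1.33, Stmn1 of -1.17, Coa3 of -1.11 and Nudt6 of -1.03. Hspa1b differed the other way, by 1.02. Stmn1, which encodes the microtubule regulator stathmin, had r = -0.578 in the later and 0.593 in the earlier mice, and Coa3, an assembly factor of cytochrome oxidase, had -0.549 and 0.564.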

How the results depend on the processing

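Across the alternatives other than those named next, the number of probe sets called with a positive r lay between 3177 and 3556 (3558 as reported) and with a negative r between 89 and 157 (110 as reported). In the 18 mice of the earlier dates alone, 910 were called positive and 15 negative, and fewer mice were tested there. With an adjusted p under 0.01, 2705 were called positive and 33 negative. With the probe set of highest mean over all arrays, 1658 genes were called, against 1639. Of 95 named genes under 12 alternatives, 65 remained called under all but the earlier dates. In the earlier mice 14 had the opposite sign: Bcat1 (0.120), Creld2 (-0.0922), Hspa1b (-0.296), Hspb1 (-0.011), Ing1 (0.632), Iws1 (0.570), Ndufa3 (-0.0866), Nudt6 (0.403), Rab6a (0.0144), Rpgrip1 (0.919), Th (0.0798), Vwf (-0.0171), Xbp1 (-0.00728) and Zadh2 (0.214); the cause was not tested. No named gene changed sign under the other 11 alternatives. Th was lost with 5 principal components of each region taken out (r = -0.298, adjusted p = 0.0948), and Gbx2 under 9 alternatives besides the earlier dates. No paired analysis was possible because the result is itself a correlation of the 2 arrays of each mouse and has no groups that share replicate numbers.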
